A study of Mus musculus with 4 samples.

Results

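Cortical GABAergic interneurons release neuropeptides beside GABA, and the genes of 9 of these peptides were followed here in nuclei of the adult mouse cortex: Sst, Cort, Npy, Vip, Tac2, Crh, Cck, Tac1 and Pnoc. The genes were chosen by symbol and make up 9 of the 32285 genes counted in the matrices. Single-nucleus RNA sequencing compared wild-type C57BL/6J mice that had received saline with wild-type C57BL/6J mice that had received risperidone, an antipsychotic that blocks dopamine and serotonin receptors, at 4 mg/kg each day. Injections began on postnatal day (PND) 22 and lasted 21 days, and the cortex was taken on PND 90, after weeks without drug. In each condition the right cortex of 5 male and 5 female mice went into 1 pool of nuclei, and the pool was loaded on 2 Chromium lanes.

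The lanes are named saline lane 1, saline lane 2, risperidone lane 1 and risperidone lane 2. Because 2 lanes of 1 pool are technical runs, no test between the conditions is possible, and no p-value is given. Every difference below is a difference between 2 pools, in which treatment and the preparation of the pool cannot be told apart. Differences are given as log2 fold changes of risperidone over saline with an exact 95% interval that covers counting error only.

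Neuropeptides are made as long precursors, cut by proconvertases in the secretory pathway, stored in dense-core vesicles and released during strong activity to act on G protein-coupled receptors. In the cortex they mark classes of interneurons. Sst belongs to cells that inhibit dendrites, and Npy to neurogliaform cells and to part of the Sst cells. Vip, Tac2, Crh and part of the Cck belong to interneurons that arise in the caudal ganglionic eminence. Pyramidal neurons make Cck as well.

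Pairs of the 9 genes share sequence, and the stretches that code for the shared ends are shown first because levels of related genes are compared below. Sst and Cort code for peptides of 1 family. The last 14 codons of Sst lie in its coding exon at chr16:23889732-23889773 (GRCm38, minus strand) and the matching 14 codons of Cort lie at chr4:149125270-149125311 (minus strand). Capitals mark the 31 of 42 bases that are identical, and 11 of 14 codons gave the same amino acid.
Sst: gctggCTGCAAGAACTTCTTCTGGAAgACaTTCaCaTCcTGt
Cort: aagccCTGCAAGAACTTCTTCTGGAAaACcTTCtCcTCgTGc

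Tac1 and Tac2 code for tachykinins, which end in a shared motif. Tac1 holds a first such end at chr6:7556735-7556764 and a second at chr6:7559101-7559130, and Tac2 holds its end at chr10:127729116-127729145, all on the plus strand of GRCm38 and all in coding exons. Capitals mark the last 5 codons. In the second end of Tac1 and in that of Tac2, 4 of 5 codons gave the same amino acid as in the first end of Tac1.
Tac1, first end: cccaagcctcagcagTTCTTTGGATTAATG
Tac1, second end: cataaaacagattccTTTGTTGGACTAATG
Tac2: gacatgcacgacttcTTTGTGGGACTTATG

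Sst and Vip are known to be driven through the cAMP-response element, whose full form is TGACGTCA and whose shorter form is TGACG, or CGTCA on the other strand. RefSeq promoters (GRCm38.p6, 250 bases before to 50 bases after the start) were at hand for 7 of the 9 genes. The short form was present in 5 of 7, in Sst, Cort, Vip, Cck and Tac1, and not in the windows of Npy and Tac2. Of all 32851 promoters in the table, 20.8% held the short form and 1.79% the full form. The full form stood in Sst alone among the 7, its first base 48 bases before the start. Npy and Tac2, without it, were called higher in at least 1 interneuron class, as were Sst, Vip and Cck. Cort and Tac1 stayed under the minimum level for a call in every interneuron class and could not be called. The short form can therefore not be compared between called and uncalled genes. Windows of 30 bases are shown for the 5 genes that hold it, with the motif in capitals, so that its surroundings can be compared. The windows of Sst and Tac1 lie inside the gene as GENCODE draws it, since the annotations place the starts differently.
Sst, chr16:23890874-23890903, minus strand: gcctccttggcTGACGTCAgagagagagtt
Cort, chr4:149126763-149126792, minus strand: tccggcttgtgCGTCAccgcgtgagtgtgg
Vip, chr10:5639128-5639157, plus strand: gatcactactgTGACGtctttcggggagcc
Cck, chr9:121495723-121495752, minus strand: ctgctggactgCGTCAgcactgggtaaaca
Tac1, chr6:7555007-7555036, plus strand: ctctacaggctCGTCAcgcctgagataaat

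The genes themselves are short. In GENCODE vM21 on GRCm38, Sst (ENSMUSG00000004366) spans 1386 bases at chr16:23889573-23890958, Cort (ENSMUSG00000028971) 1730 bases at chr4:149125034-149126763, and Crh (ENSMUSG00000049796) 1996 bases at chr3:19693401-19695396. Cck (ENSMUSG00000032532) spans 5871 bases at chr9:121489824-121495694, Npy (ENSMUSG00000029819) 6798 bases at chr6:49822710-49829507, and Tac2 (ENSMUSG00000025400) 7291 bases at chr10:127724478-127731768. Vip (ENSMUSG00000019772) spans 8400 bases at chr10:5639218-5647617, Tac1 (ENSMUSG00000061762) 10956 bases at chr6:7554879-7565834, and Pnoc (ENSMUSG00000045731) 24800 bases at chr14:65400673-65425472. No other annotated gene overlapped any of the 9. Nuclear libraries count intronic as well as exonic reads.

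The lanes held 29533 and 29981 saline nuclei and 25696 and 23283 risperidone nuclei, with 119731088, 147895201, 168362102 and 203573279 UMIs (unique molecular identifiers, the counted molecules) in the same order. The median nucleus had 3297 and 4050 UMIs in the saline lanes and 5690 and 7802 UMIs in the risperidone lanes, so the risperidone lanes were the deeper ones. The lowest total listed was 1364 and 1630 UMIs in the saline lanes and 500 UMIs in both risperidone lanes. Nuclei under 1364 UMIs were thus listed in the risperidone lanes alone, which bears on class shares and class medians. Between 160 and 221 barcodes were shared by any pair of lanes. Nuclei were sorted into classes by marker genes that did not include the 9 peptides, and a class is called by its markers as PV-like, Sst-like, Vip-like or Lamp5-like. The 4 interneuron classes held 4449, 2591, 2210 and 2165 nuclei in this order. Pvalb stood at 29.5 UMIs per 1000000 UMIs of the class (CPM) in PV-like nuclei and at 2.24 CPM or less in the other 3 classes. Grin3a stood at 1048 CPM in Sst-like nuclei against 63.5 CPM in all other nuclei, and Igf1 at 348 CPM in Vip-like nuclei against 11.4 CPM. Elfn1, Crhbp and Hpse were, like Grin3a, among the 10 genes with the highest fold in Sst-like nuclei. Tmem132c, also used as an Sst marker, was instead among those of PV-like nuclei, at 265 CPM against 15.3 CPM in all other nuclei. Ndnf stood at 128 CPM in Lamp5-like nuclei and at 6.45 CPM or less in the other 3, while Reln, at 1372 CPM there, also stood at 955 CPM in Sst-like nuclei. No class was made for Sncg interneurons, the Cck basket cells, and their markers were most abundant in Vip-like nuclei, with Cnr1 at 451 CPM against 133 CPM or less in the other 3 classes and Slc17a8 at 21.1 CPM against 1.30 CPM or less. How many such cells the Vip-like nuclei include was not tested. Although not used to build the classes, Sst and Vip were among the 10 genes with the highest fold over all other nuclei in the class of their name, in places 2 and 1.

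Sst had its highest level in 1 class. In Sst-like nuclei its level was 37.9 and 28.0 CPM in the saline lanes and 75.5 and 60.4 CPM in the risperidone lanes, and its lowest value there lay above its highest in every other class. PV-like nuclei were next, with 3.15, 2.81, 5.63 and 6.31 CPM in the order saline lane 1, saline lane 2, risperidone lane 1 and risperidone lane 2, which is the order used from here on. PV-like nuclei did not stand clear of the class after them. Over the 4 lanes, 36.8% of all Sst UMIs came from Sst-like nuclei, and 35.9% came from the 66341 glutamatergic-like nuclei, at only 1.27 to 1.85 CPM.

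**Figure D1:**
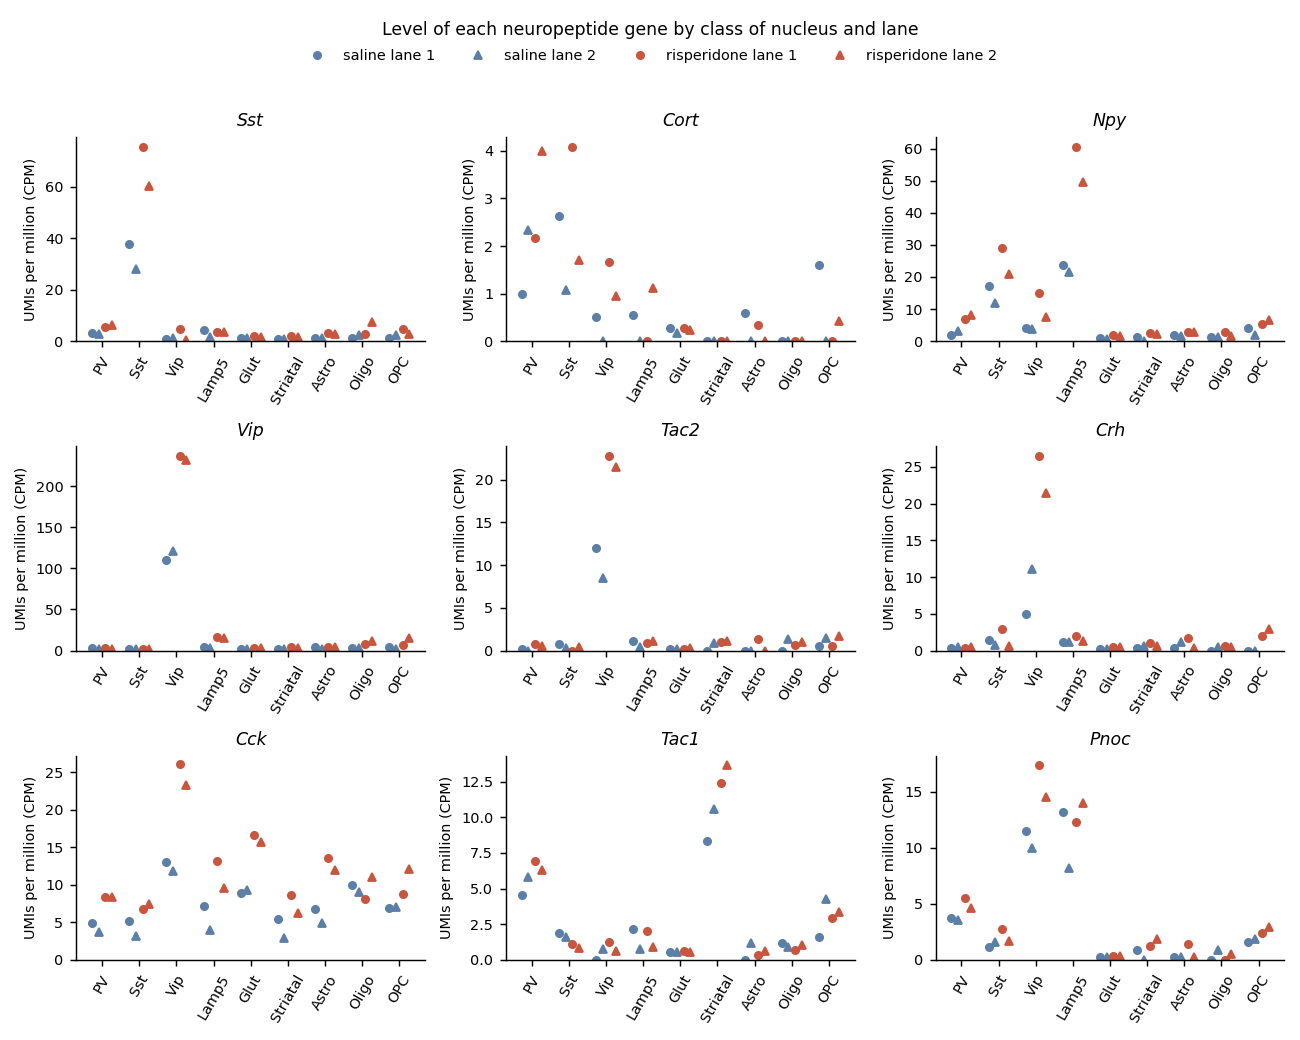
Level of the 9 genes in CPM (vertical axes, linear and starting at 0, with a scale of their own) in 9 classes of nuclei (horizontal axis; Glut, glutamatergic-like; Astro, astrocyte-like; Oligo, oligodendrocyte-like; OPC, oligodendrocyte precursor-like). Each point is 1 lane, with circles for lane 1 and triangles for lane 2, and no error is drawn. Sst stands in Sst-like nuclei, Vip, Tac2 and Crh in Vip-like nuclei, Npy in Lamp5-like and Sst-like nuclei, while Cck is spread over all classes.

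Vip, Tac2 and Crh had their highest levels in Vip-like nuclei. Vip stood there at 110.0, 121.3, 236.6 and 232.1 CPM, followed by 4.39, 2.75, 16.6 and 15.8 CPM in Lamp5-like nuclei. Tac2, the precursor of neurokinin B, stood at 12, 8.53, 22.7 and 21.5 CPM in Vip-like nuclei, and its mean was 1.03 CPM or less in each other class. Crh, corticotropin-releasing hormone, stood at 5.0, 11.1, 26.5 and 21.5 CPM in Vip-like nuclei against a mean of 1.49 CPM or less elsewhere. All 3 genes were clear of the next class in the sense that their lowest lane in Vip-like nuclei lay above the highest lane of that class. Of all their UMIs, Vip-like nuclei held 46.6% for Vip, 43.9% for Tac2 and 32.8% for Crh, and the far more numerous glutamatergic-like nuclei held 26.9%, 25.1% and 35%.

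Npy was divided between classes. It stood at 23.6, 21.6, 60.6 and 49.7 CPM in Lamp5-like nuclei and at 17.2, 11.8, 29.2 and 21.0 CPM in Sst-like nuclei. The ranges of the 2 classes over all 4 lanes overlapped, but within each lane Lamp5-like nuclei had the higher level. Of all Npy UMIs, 30.7% came from glutamatergic-like, 24.9% from Lamp5-like and 13.8% from Sst-like nuclei. Pnoc, which codes for the precursor of nociceptin, led in Vip-like nuclei with 11.5, 10.0, 17.4 and 14.5 CPM and in Lamp5-like nuclei with 13.2, 8.24, 12.3 and 14 CPM. These 2 classes overlapped, and both stood above PV-like nuclei, in which Pnoc had a mean of 4.37 CPM.

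The label of interneuron peptide held least for Cck and Tac1. Cck, the precursor of cholecystokinin, had 13.0, 11.9, 26.1 and 23.4 CPM in Vip-like nuclei and 8.93, 9.29, 16.7 and 15.7 CPM in glutamatergic-like nuclei. These ranges over all lanes overlapped, but within each lane Vip-like nuclei had the higher level. Glutamatergic-like nuclei held 79.9% of all Cck UMIs and all GABAergic nuclei together 8.07%. In oligodendrocyte-like nuclei Cck was counted at 10.0, 9.07, 8.19 and 11 CPM, which in the saline lanes was above the values of PV-like, Sst-like and Lamp5-like nuclei. Tac1, the precursor of substance P, was highest in nuclei with markers of striatal projection neurons, at 8.31, 10.6, 12.4 and 13.6 CPM, and came next in PV-like nuclei, at 4.52, 5.78, 6.91 and 6.31 CPM. Neither of these 2 classes overlapped the one after it.

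Cort was counted in few interneuron nuclei. It reached a mean of 2.38 CPM in both Sst-like and PV-like nuclei, with 2.62, 1.08, 4.09 and 1.71 CPM in the former and 0.983, 2.34, 2.18 and 4.00 CPM in the latter, so the order of these 2 classes cannot be given. In the striatal-like and oligodendrocyte-like nuclei no Cort UMI was counted in any lane.

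A gene was called higher or lower in the risperidone pool when the size of its log2 fold change reached 0.5, its mean over the lanes reached 10 CPM and the 2 risperidone lanes were both outside the range of the saline lanes, after scaling by the trimmed mean of M values (TMM). Of the 36 pairs of gene and interneuron class, 9 reached 10 CPM, 7 of these were higher and 0 were lower. A gene can pass this minimum through the condition where it is high: in the saline lanes alone, 6 of the 7 had a mean of at least 10 CPM, and Crh in Vip-like nuclei, at 8.07 CPM, did not. By class these were 2 of 2 in Sst-like nuclei, where 5.58% of all genes tested were higher and 7.01% lower, 4 of 5 in Vip-like nuclei, where 6.12% were higher and 6.00% lower, and 1 of 2 in Lamp5-like nuclei, where 6.15% were higher and 5.93% lower. None of the 9 genes reached 10 CPM in PV-like nuclei, where 4.54% of all genes tested were higher and 6.98% lower. Under the minimum there, Npy gave a log2 fold change of 1.45 (0.86 to 2.08), Sst 0.91 (0.34 to 1.51) and Cck 0.86 (0.38 to 1.36). Their lanes were apart, whereas those of Vip (0.14), Crh (-0.03) and Cort (0.75) overlapped. The gap between lanes says little on its own, since the lanes of the conditions did not overlap for 59.0% to 72.7% of all genes tested in these 4 classes.

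**Figure D2:**
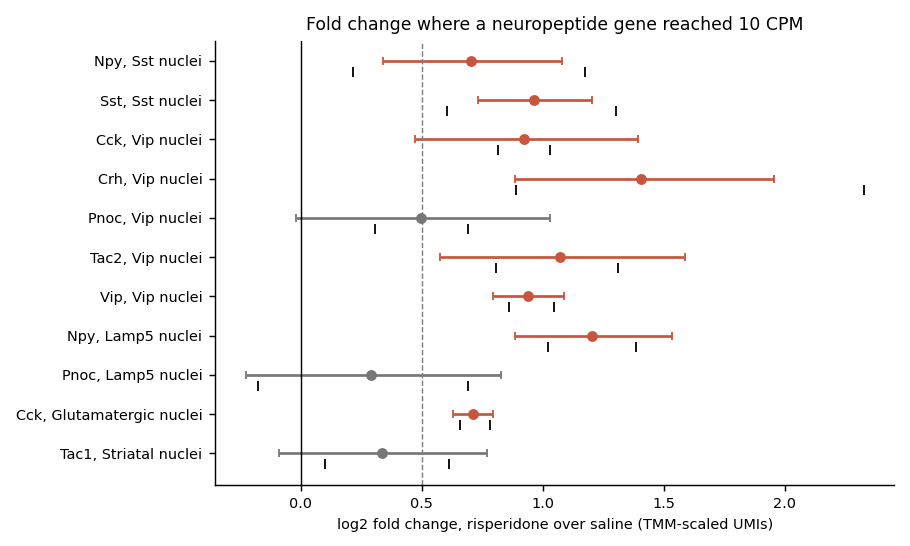
Log2 fold change of risperidone over saline (horizontal axis) for each gene and class with a mean of at least 10 CPM. Points are the ratio of UMIs added over the 2 lanes of a condition, bars the exact 95% counting interval, black ticks below them the lowest and highest of the 4 ratios between single lanes, red a call as higher, and the dashed line the fold required. All points lie above 0, and those of Pnoc and Tac1 do not pass the call.

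Sst UMIs numbered 205 in the saline and 559 in the risperidone Sst-like nuclei, a log2 fold change of 0.96 (0.73 to 1.20). Both risperidone lanes lay above both saline lanes. In this class the lanes of the conditions were apart for 65.1% of all genes tested. The call of Sst held in all 15 alternative settings that could change the fold, between 0.73 and 1.16. Npy, which a subset of Sst cells make as well, went from 90 to 205 UMIs with a log2 fold change of 0.70 (0.34 to 1.08). Here the lanes lay close, and the fold dropped under the threshold without saline lane 2, at 0.41, and without risperidone lane 1, at 0.49, and in male-called nuclei alone (14 and 51 UMIs) the lanes overlapped at a log2 fold change of 1.47 (0.60 to 2.44). The nearest values were the 17.2 CPM of saline lane 1 and the 21.0 CPM of risperidone lane 2.

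In Vip-like nuclei, Vip went from 547 to 1307 UMIs, a log2 fold change of 0.94 (0.79 to 1.09). Tac2 went from 47 to 123 UMIs with a log2 fold change of 1.07 (0.57 to 1.59). Crh had 40 and 132 UMIs, which gave 1.41 (0.88 to 1.95), and its saline lanes, at 5.0 and 11.1 CPM, differed from each other more than its risperidone lanes did. Single pairs of lanes gave 0.89 to 2.33 for Crh, the widest range among the 7 calls, and without saline lane 2 its log2 fold change was 2.18. Cck had 58 and 137 UMIs in these nuclei, a log2 fold change of 0.92 (0.47 to 1.39). This class also carried the markers of Cck basket cells, and their part in the value was not tested. In male-called nuclei alone, with 12 and 28 UMIs, its lanes overlapped at a log2 fold change of 0.81. After the level of oligodendrocyte-like nuclei of the same lane, which was close to that of the saline Vip-like nuclei, had been subtracted, Cck gave 2.29, and after that of glutamatergic-like nuclei (an alternative chosen after seeing the data) 1.31, so its size depends on the background taken. With all nuclei, for all 4 genes the lanes of the conditions were apart, as they were for 59.0% of all genes tested in this class.

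In Lamp5-like nuclei Npy went from 98 to 435 UMIs, a log2 fold change of 1.20 (0.88 to 1.53). Vip in the same nuclei went from 15 to 129 UMIs with a log2 fold change of 2.16 (1.38 to 3.04), but its mean of 9.89 CPM was just under the minimum and gave no call. Vip is not a peptide that neurogliaform cells are known for, and its level lay far under that in Vip-like nuclei. Oligodendrocyte-like nuclei, which do not make Vip, stood at 3.54, 3.17, 8.19 and 12 CPM, with a log2 fold change of 1.49 (0.54 to 2.53). Oligodendrocyte precursor-like nuclei went from 12 to 52 Vip UMIs, 1.86 (0.93 to 2.90), and astrocyte-like nuclei gave 0.37 (-0.49 to 1.25). Vip was thus also counted in nuclei that should lack it, and the part of such UMIs in the Lamp5-like value was not tested. Of the Vip UMIs in Lamp5-like nuclei, 55.2% in risperidone lane 1 and 46.5% in risperidone lane 2 came from 7 and 8 nuclei with 3 or more UMIs each, and no saline Lamp5-like nucleus had more than 2.

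Pnoc was the exception among the tested pairs. In Vip-like nuclei it went from 50 to 88 UMIs with a log2 fold change of 0.50 (-0.02 to 1.03), which lay just short of the threshold before rounding, and the interval reached 0. It was called in 8 of 15 alternative settings that could change the fold. In Lamp5-like nuclei it went from 45 to 106 UMIs with a log2 fold change of 0.29 (-0.23 to 0.83), and the lanes of the conditions overlapped, saline lane 1 at 13.2 CPM being above risperidone lane 1 at 12.3 CPM. It was called higher without saline lane 1, at 0.60, and in male-called nuclei, at 0.73, and stood at -0.05 without saline lane 2.

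Tac1 in PV-like nuclei, which were the interneurons with the most of it, had 60 and 114 UMIs and a log2 fold change of 0.22 (-0.24 to 0.70) at a mean of 5.88 CPM, under the minimum. In striatal-like nuclei, where it reached 11.2 CPM, it had 76 and 121 UMIs and a log2 fold change of 0.34 (-0.09 to 0.77), which was not called. Female-called nuclei made up 26.2%, 29.3%, 69.2% and 66.5% of the striatal-like nuclei of the 4 lanes, so the sexes were not equally represented in the conditions. Cort had 20 and 55 UMIs in PV-like nuclei, 0.75 (-0.01 to 1.57), and 11 and 23 UMIs in Sst-like nuclei, 0.58 (-0.51 to 1.76). At this depth no difference was detectable for either gene in these classes.

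Over all GABAergic nuclei, in which the 4 classes and nuclei with GABAergic markers but no class were added, 3 of the 9 genes reached 10 CPM and all 3 were higher, whereas 3.49% of all genes tested were higher and 5.74% lower. Sst and Npy, with saline means of 9.21 and 8.67 CPM, passed the minimum only through the risperidone lanes, so of the 3 calls that of Vip alone does not rest on this. Sst had a log2 fold change of 0.82 (0.61 to 1.02), Npy 1.15 (0.95 to 1.36) and Vip 0.66 (0.52 to 0.79). Across the 9 genes, whether or not they reached 10 CPM, values ran from 0.15 for Tac1 to 1.15 for Npy with a median of 0.78, against a median of -0.00 over the 14221 genes with at least 1 CPM, a minimum that all 9 passed. Subtracting the level of oligodendrocyte-like nuclei of the same lane left Npy as the only call, since Vip fell to 0.42 and the lanes of Sst overlapped at 0.61. That level rests on few UMIs, at most 14 of Sst and 23 of Vip per lane, of which 42.9% and 21.7% in risperidone lane 2 came from 2 nuclei and 1 nucleus. The median oligodendrocyte-like nucleus was shallower in the risperidone lanes, with 2136, 2696, 1246 and 1546 UMIs. Subtracting instead the level of glutamatergic-like nuclei, an alternative chosen after seeing the data, gave 0.88 for Sst, 1.17 for Npy and 0.66 for Vip.

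In glutamatergic-like nuclei, Cck was the 1 gene of the 9 to reach 10 CPM, and it was higher, from 1630 to 4591 UMIs, a log2 fold change of 0.71 (0.63 to 0.79). With a saline mean of 9.11 CPM it passed the minimum only through the risperidone lanes. Among all genes tested in these nuclei 3.79% were higher and 7.91% lower. The other 8 genes stood at 2.20 CPM or less there, under the minimum, with log2 fold changes of 1.00 (0.74 to 1.28) for Npy, 0.59 (0.39 to 0.78) for Vip and 0.36 (0.13 to 0.59) for Sst. Crh gave 1.02 (0.51 to 1.56), whereas Tac1 gave -0.00 (-0.37 to 0.37). The lanes of Tac1, Cort and Pnoc overlapped there. Lanes that lie apart say little in this class, since they did so for 90.9% of all genes tested. Under the minimum, none of these 8 genes could be called in glutamatergic-like nuclei, so the lack of a call is no contrast with the interneurons. The subtraction above gives the interneuron folds of Sst, Npy and Vip without this level.

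Over whole lanes, Cck alone reached 10 CPM and was higher, at 8.34, 8.19, 15.5 and 14.6 CPM with a log2 fold change of 0.75 (0.67 to 0.82), while 3.03% of all genes tested were higher and 7.86% lower. Here too its saline lanes lay under the minimum. Npy, at 2.06, 1.89, 4.65 and 4.10 CPM, gave 1.03 (0.89 to 1.18), and Tac1, at 1.19, 1.27, 1.31 and 1.35 CPM, gave -0.01 (-0.22 to 0.19). In whole lanes more cells of a class and more RNA per cell cannot be told apart. The shares of the classes among all nuclei that passed also differed. Nuclei that got no class are part of this base, and they were a larger part of the saline lanes, which were shallower. The shares are therefore no measure of the cell composition of the pools, which was not tested. Glutamatergic-like nuclei, which held most Cck UMIs, made up 55.4%, 59.5%, 65.1% and 66.2% of the 4 lanes, Lamp5-like nuclei 1.52%, 1.73%, 2.43% and 2.47%, and Sst-like nuclei 2.13%, 2.40%, 2.49% and 2.58%.

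The share of nuclei with at least 1 UMI was taken after every nucleus had been thinned to 2000 UMIs, so that nuclei of the lanes were compared at 1 depth. At that depth Vip was seen in 18.3%, 20.5%, 34.1% and 33.1% of Vip-like nuclei, of which 427, 561, 504 and 487 were deep enough, and in 0.307%, 0.323%, 0.624% and 0.508% of glutamatergic-like nuclei, which should lack it. Unthinned, with a median of 3112, 3924, 3724 and 5489 UMIs per Vip-like nucleus, the shares were 27.2%, 30.9%, 45.7% and 52.1%. The risperidone lanes were thus above the saline lanes with and without thinning.

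Sst was seen in 7.27%, 5.78%, 14% and 12.5% of thinned Sst-like nuclei and in 0.238%, 0.288%, 0.420% and 0.410% of thinned glutamatergic-like nuclei. Npy was seen in 4.65%, 4.08%, 9.92% and 10.1% of Lamp5-like nuclei and in 0.150%, 0.170%, 0.426% and 0.339% of glutamatergic-like nuclei. Both genes were thus found in more nuclei of their class in each risperidone lane than in either saline lane. Tac2 was found in 1.64%, 1.07%, 4.96% and 4.11% and Crh in 0.234%, 3.03%, 4.76% and 5.13% of Vip-like nuclei, so Crh in saline lane 1 was a single nucleus and its 2 saline lanes were unlike each other. Cck was found in 3.28%, 1.60%, 5.95% and 3.70% of Vip-like nuclei and in 1.19%, 1.83%, 0.498% and 1.25% of oligodendrocyte-like nuclei, so saline lane 2 was not above the class that should lack it. Pnoc in Lamp5-like nuclei gave 3.36%, 1.63%, 3.03% and 3.17%, in which the conditions overlapped. Unthinned medians were 3774, 4452, 5282 and 7209 UMIs in Sst-like, 3596, 4202, 4626 and 6534 UMIs in Lamp5-like and 4065, 4808, 6482 and 8872 UMIs in glutamatergic-like nuclei.

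**Figure D3:**
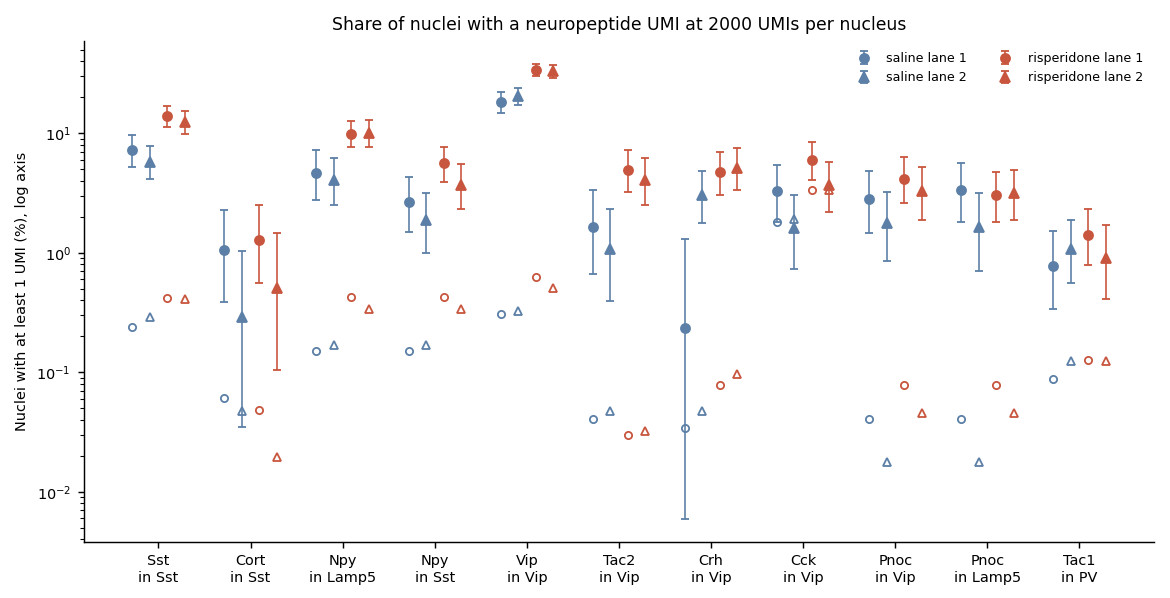
Share of nuclei with at least 1 UMI of a gene (vertical axis, percent, logarithmic) after thinning each nucleus to 2000 UMIs, for 11 pairs of gene and class (horizontal axis). Filled symbols with exact 95% intervals are the named class, and open symbols the glutamatergic-like nuclei of the same lane. In Vip-like nuclei, Vip lies at 18.3% and 20.5% in the saline and 34.1% and 33.1% in the risperidone lanes, while Cck of the named class lies close to the open symbols.

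Few molecules per nucleus were counted even in the named class. Without thinning, Sst-like nuclei held at most 3 Sst UMIs in both saline lanes and at most 5 in both risperidone lanes, and Vip-like nuclei held at most 5, 9, 11 and 14 Vip UMIs. A nucleus without a UMI is therefore no nucleus without the peptide. In thinned risperidone Vip-like nuclei, of which there were 991, Vip was seen in 59.2% of the 49 with Crh, in 53.3% of the 45 with Tac2 and in 51.4% of the 37 with Pnoc, compared with 33.6% of all of them. In thinned risperidone Sst-like nuclei, of which there were 1214, Sst was seen in 24.6% of the 57 nuclei with Npy and in 13.3% of all. In 988 thinned saline Vip-like nuclei, Vip was seen in 27.3% of the 22 with Pnoc and in 19.5% of all. These shares come from nuclei of 1 pool and are descriptions.

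Female and male nuclei could be separated by UMIs of Xist and of Y-linked genes. Female-called nuclei made up 35.9% to 40.6% of the interneuron classes in the saline lanes and 40.3% to 48.9% in the risperidone lanes. Male-called nuclei made up 17.4% to 21.9% and 20.4% to 24.0%. The remaining nuclei had UMIs of neither kind or of both and got no call. Within female-called nuclei the log2 fold change was 1.16 (0.80 to 1.54) for Sst in Sst-like, 0.93 (0.70 to 1.16) for Vip in Vip-like and 1.90 (1.34 to 2.52) for Npy in Lamp5-like nuclei. Within male-called nuclei the same pairs gave 1.11 (0.59 to 1.65), 1.11 (0.78 to 1.45) and 0.93 (0.35 to 1.55). The direction was therefore the same in nuclei of both sexes, and the difference between the sexes was not tested. Pnoc in Vip-like nuclei gave -0.01 (-0.73 to 0.73) in female-called and 1.29 (0.10 to 2.64) in male-called nuclei, the latter from 8 and 26 UMIs.

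The share of genes called differed with genomic span over all genes. In all GABAergic nuclei, of 398 tested genes shorter than 10 kb 17.1% were higher and 8.04% lower, with a median log2 fold change of 0.10. Of 5145 genes of 10 to 100 kb 3.38% were higher and 5.17% lower. Of 2054 genes of 100 kb or more 1.12% were higher and 6.72% lower, with a median of -0.15. Short genes were thus called more often in both directions, and the bins differed more in the share higher than in the share lower. Among genes shorter than 10 kb, 21.0% were higher in Vip-like nuclei, 19.5% in Sst-like nuclei and 21.9% in Lamp5-like nuclei. All 7 calls in the interneuron classes belonged to genes shorter than 10 kb, which are 7 of the 9, and the 2 longer genes were Tac1 and Pnoc. The part of span in the calls was not tested.

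**Figure D4:**
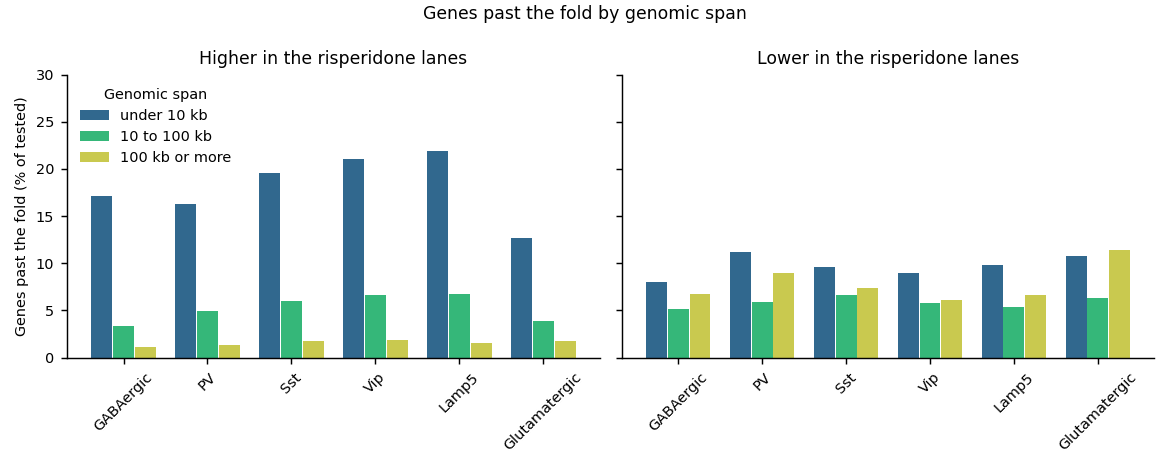
Percent of tested genes past the fold (vertical axis, from 0) by genomic span in GENCODE vM21 and set of nuclei (horizontal axis), for genes higher (left) and lower (right) in the risperidone lanes. Bars are all genes tested in a set and carry no error. In all GABAergic nuclei 17.1% of genes under 10 kb were higher against 1.12% of genes of 100 kb or more.

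Scaling set how many genes were called in each direction. With TMM scaling 265 genes were higher and 436 lower in all GABAergic nuclei, so that 37.8% of the calls were higher. With plain CPM the counts were 519 and 197, and 72.5% were higher, since plain CPM raised every log2 fold change in these nuclei by 0.12. No member changed its call as a result in the interneuron classes except Pnoc in Vip-like nuclei, which the shift of 0.07 there brought past the threshold.

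The receptors of the 9 peptides were mostly under 10 CPM. Of 19 receptor genes, 3 reached 10 CPM in all GABAergic nuclei, and 0 were higher and 0 lower, against 3.49% and 5.74% of all genes tested. Their median log2 fold change was -0.17. Tacr1, the receptor of substance P, stood at 22.3, 26.0, 22.1 and 23.0 CPM with a log2 fold change of -0.23 (-0.37 to -0.09). Crhr1, a receptor of corticotropin-releasing hormone, gave -0.17 (-0.35 to 0.02), and Cckbr, a receptor of cholecystokinin, gave -0.01 (-0.21 to 0.19). In Lamp5-like nuclei Tacr1 was lower, at 17.0, 14.5, 6.01 and 11.4 CPM, with a log2 fold change of -0.86 (-1.36 to -0.36). The mean of its risperidone lanes lay under the minimum, so it passed only through the saline lanes. It was the 1 receptor called in any interneuron class, over which 3, 2, 4 and 3 receptors were tested in the order PV, Sst, Vip and Lamp5. Of all genes tested, 5.93% to 7.01% were lower in these classes. Receptors of Sst and Oprl1, the receptor of nociceptin, did not reach 10 CPM in all GABAergic nuclei.

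Genes that process peptides or load dense-core vesicles were mostly above the minimum, and 13 of 14 reached 10 CPM in all GABAergic nuclei, of which 2 were higher and 0 lower, against 3.49% and 5.74% of all genes, with a median of 0.15. The 2 were Pcsk1n, a proconvertase inhibitor, at 9.09, 8.53, 18.5 and 17.3 CPM with a log2 fold change of 0.90 (0.70 to 1.11), whose saline lanes lay under the minimum, and Pcsk1, the proconvertase that cuts many of these precursors, at 25.7, 23.9, 40.0 and 37.1 CPM with 0.51 (0.39 to 0.64). The genes of the list with the highest CPM, a scale not adjusted for gene length, were not called. Cadps, a factor for the release of dense-core vesicles, had a mean of 1753 CPM and gave -0.08, Pam, which amidates peptide ends, 660 CPM and 0.21, Pcsk2, the second proconvertase, 498 CPM and -0.07, and Cpe, which trims them, 287 CPM and -0.24. Scg2, a granin, was higher in Vip-like nuclei at 0.62 (0.30 to 0.95) and in Lamp5-like nuclei at 0.85 (0.45 to 1.27). Each of the 4 classes had 2 of 13 tested genes of the list higher and 0 lower, where 4.54% to 6.15% of all genes were higher.

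Of 16 other genes, listed as neuropeptide or peptide-binding genes, 2 reached 10 CPM in all GABAergic nuclei and none of these was called, against 3.49% of all genes higher and 5.74% lower. They were Nxph1, with -0.20 (-0.22 to -0.19), and Crhbp, which binds corticotropin-releasing hormone, with 0.07 (-0.15 to 0.29). Both are among the markers that set the classes, so their levels in these nuclei are in part given by the sorting. In Sst-like nuclei, 1 of 3 tested genes of the list was higher, where 5.58% of all genes were. It was Pdyn, the precursor of dynorphin, named after its value was seen, at 14.6, 10.8, 23.7 and 17.8 CPM, with a log2 fold change of 0.62 (0.23 to 1.03). Its lanes did not overlap, as for 65.1% of all genes tested in these nuclei. Penk, the precursor of enkephalins, reached 15.2 CPM in Vip-like nuclei and gave 0.38 without a call.

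For each of the 9 genes the genes with the most similar pattern were sought by Pearson's r of log2(CPM + 1) over 32 pairs of 8 classes and 4 lanes, among 9623 genes. Striatal-like nuclei, in which Tac1 had its highest level, were not among the 8 classes. The points share lanes and depth, and the values are descriptions. Htr3a and Pvalb, named here, are among the markers that set the classes, so their pattern over classes is in part given by the sorting. Vip and Tac2 were each other's nearest gene, with r of 0.93, and Vip was followed by Grpr at 0.92. Crh was nearest to Grpr, the receptor of gastrin-releasing peptide, at 0.91, and Tac2 came near Htr3a, a serotonin receptor subunit, at 0.92. Sst was nearest to Pdyn at 0.86, Cort to Cntnap3 at 0.80, Npy to Pola1 at 0.93 and Tac1 to Ppp2r5e at 0.84, with Pvalb next to it at 0.83. Pnoc was nearest to Arl4c at 0.93. Cck had the weakest likeness, 0.79 with Naf1.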

How the data were processed

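The authors counted reads, introns included, with Cell Ranger 8.0.1 on mm10 and deposited filtered matrices of raw UMI counts per gene and nucleus. Nuclei needed 500 genes or more and 5% mitochondrial UMIs or less. A class was given where its marker profile was at least 99 times as likely as the next, with at least 2 UMIs of its own markers in an interneuron, at most 8 glutamatergic marker UMIs per 10000 and, except for Lamp5, at most 20 per 10000 of the other branch. These thresholds were set after marker levels had been seen. No doublet caller was run. The limits on markers of other classes held for the interneuron classes alone. A nucleus of mixed markers could therefore keep a glutamatergic-like, striatal-like or glial class. Single glutamatergic-like nuclei held up to 8 Vip UMIs and up to 6 Sst UMIs. An alternative left out the top 10% of UMIs.

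UMIs were added per class and lane and scaled by TMM factors (edgeR 4.0.16), with exact binomial intervals for ratios and Clopper-Pearson intervals for shares, at 95% and for counting error only. With 1 pool per condition only sizes were computed. Alternatives were plain CPM, DESeq2 1.42.0 size factors, a minimum of 1 CPM or none, each lane left out, other class rules, thinning, subtraction of the level in other nuclei, and nuclei of 1 sex. A further alternative, chosen after seeing the data, kept nuclei above the lowest saline totals alone. The fold calculation was tested on simulated data, with Python 3.11.15, numpy 2.4.6, scipy 1.17.1, pandas 2.3.3, R 4.3.3 and random seed 1. GENCODE vM21 held 32158 of 32285 gene identifiers. Named genes are the 9 peptides, the most abundant genes of 3 lists, those of similar pattern, and, after their values were seen, the listed genes that were called and Penk. The peptides and lists were chosen with earlier results of these data known.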

Additional observations from a re-analysis of the deposited data

How the results depend on the processing

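No gene of the 9 changed direction where it was called. In all GABAergic nuclei, plain CPM gave 519 genes higher and 197 lower, a minimum of 1 CPM gave 1667 and 1056, and no minimum gave 4010 and 2476. With a minimum of 1 CPM, 14 of 29 pairs of peptide and interneuron class were higher and 1 was lower (Tac1 in Sst-like nuclei, from 11 and 8 UMIs), 7 of 9 peptides were called in all GABAergic nuclei and 4 of 6 in whole lanes. Of all genes at that minimum, 13.0% to 14.4% were higher in the 4 classes, 11.7% in all GABAergic nuclei and 9.97% in whole lanes. The shares lower were 9.01% to 9.17%, 7.43% and 8.19% in the same order. Without a minimum the peptide counts were 16 of 36, 1, 7 and 6, beside 14.3% to 15.6%, 15.7% and 16.9% of all genes higher. Lower were 8.54% to 9.48%, 9.71% and 11.9% of all genes. Female-called nuclei alone gave 423 genes higher and 635 lower. Subtracting the oligodendrocyte-like level left 1 peptide called in all GABAergic nuclei. The cause was not tested in these cases, except that a lower minimum tests more genes. Of the fold changes of single peptides under settings that could change them, 192 stayed within their counting interval and 14 did not. Of the shares of nuclei with a UMI at another depth or unthinned, which change with depth by construction, 20 moved further than their interval. Npy in Sst-like nuclei kept its call in 12 of 15 such settings, Cck in Vip-like nuclei in 14, and Sst in Sst-like, Vip, Tac2 and Crh in Vip-like and Npy in Lamp5-like nuclei in 15. Pnoc in Vip-like nuclei was called in 8. No paired analysis was possible because the lane numbers mark technical runs of 1 pool per condition and no test was made. Cort and Tac1 stayed under 10 CPM in every interneuron class because of their level relative to all UMIs there, and the number of UMIs sets the width of their intervals.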
